A study of Danio rerio with 8 samples.

Results

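The neuronal intermediate filament genes *nefla*, *neflb*, *nefma*, *nefmb*, *inaa*, *inab* and *prph* were followed through bulk RNA sequencing of sorted hindbrain neurons. They were chosen by name, as the rows with these 7 symbols among the 28802 genes of the deposited count table. Neurons were collected from zebrafish larvae between 72 and 74 hpf in 4 experimental repeats, and each repeat gave 1 library from *phox2a* null larvae (*phox2a*-/-) and 1 from siblings (*phox2a*+/+ or +/-). All larvae carried the driver Tg(-6.7Tru.Hcrtr2:GAL4-VP16), the reporter it drives, Tg(UAS:E1b-Kaede), and Tg(isl1:GFP), a label of cranial motor neurons, on a background without pigment. Null larvae were picked before harvest because the Tg(isl1:GFP) signal was largely missing from the extraocular motor nuclei nIII and nIV. Each library pooled neurons of many larvae, siblings were not separated into wildtype and heterozygous larvae, and the null alleles used in each library are not given in the sources used here. The driver line labels more than the vestibular projection neurons, and the sort kept any neuron with green fluorescence, so that neurons labeled by Tg(isl1:GFP) alone could enter. The table names its libraries by run, and its runs are called repeats A, B, C and D here, from the lowest run code to the highest. Repeats A to C (6 libraries) entered the comparison, and repeat D is given apart.

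Neurofilaments are the stable cables of the axon. They are built from subunits that share a coiled rod and differ in their head and tail: a light chain (NEFL) that forms the core, a medium chain (NEFM) whose long tail projects from the filament, and alpha-internexin (INA), which assembles with them early in neuronal development. Peripherin (PRPH) is a related subunit best known in mammals from motor and sensory neurons with axons outside the brain. In mammals, these proteins set the caliber of large axons, and they serve widely as markers of differentiated projection and motor neurons. In zebrafish, most of these genes exist as a pair of copies, named with a final a or b. RefSeq (GRCz12tu) lists *plasticin* as a synonym of *prph* and *gefiltin* as a synonym of *inab*, 2 names given to intermediate filament proteins of the fish visual pathway. In that annotation *nefla* lies next to *nefma*, and *neflb* next to *nefmb*, with 0 genes between the members of either pair. Transcript lengths were not available, so levels are compared between libraries and not between genes.

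Reads assigned to genes ranged from 18657956 to 19968857 in siblings A to C and from 9579375 to 16992689 in the null libraries. The null library of repeat C stood apart. Of its listed reads, 62.4% were not aligned, against 11.8% to 16.1% in the other 5, and 33.8% of the genes tested had no reads in it, against 2.08% to 7.93%. On *phox2a*, 9355, 9465 and 4151 reads were counted in siblings A, B and C, and 1125, 2811 and 1015 in null A, B and C. After normalization this was 338 ± 119 counts-per-million (CPM) in siblings against 145 ± 76.2 CPM in null larvae (SD, n = 3 libraries each), and null C (206 CPM) lay just above sibling C (201 CPM). That overlap rests on the TMM factor of null C, 0.518 against 1.104 to 1.217 in the other 5 libraries, which raises every normalized level there. Without that factor, *phox2a* was at 468, 493 and 222 CPM in siblings and 66.2, 185 and 106 CPM in null larvae, with no overlap. All 12 pan-neuronal marker genes examined, among them *elavl3*, *snap25a* and *stmn2a*, had reads in each of the 6 libraries. Their summed level was 11148 to 15498 CPM in siblings, 13073 and 13714 CPM in null A and B, and 27084 CPM in null C.

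No member separated the genotypes. Levels below are TMM-normalized CPM, the counts-per-million of gene reads after a scaling factor for each library, and a log2 fold change is null over sibling. Genotypes were compared with edgeR's quasi-likelihood test over 14824 genes with enough reads, and calls needed a log2 fold change beyond 2 in either direction with an adjusted p under 0.05. All 7 members passed the filter on low counts. Of them, 0 were called, against 0% of all genes tested, and 0 had an unadjusted p under 0.05, against 3.22% of all genes. DESeq2 gave an adjusted p for 5 of the 7 and called 0, against 0.842% of the 15194 genes with one, and gave no p for *nefmb* and *inab*. For 0 of the 7 did every null library lie below every sibling library, which held for 7.52% of genes, and for 0 of the 7 did every null library lie above every sibling library, which held for 3.09%. The log2 fold change was positive for 5 members and negative for 2, with a median of 0.67, beside a median of -0.15 over all genes. Without the null library of repeat C it was negative for 5 and positive for 2, with a median of -0.63, beside -0.03 over all genes.

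**Figure D1:**
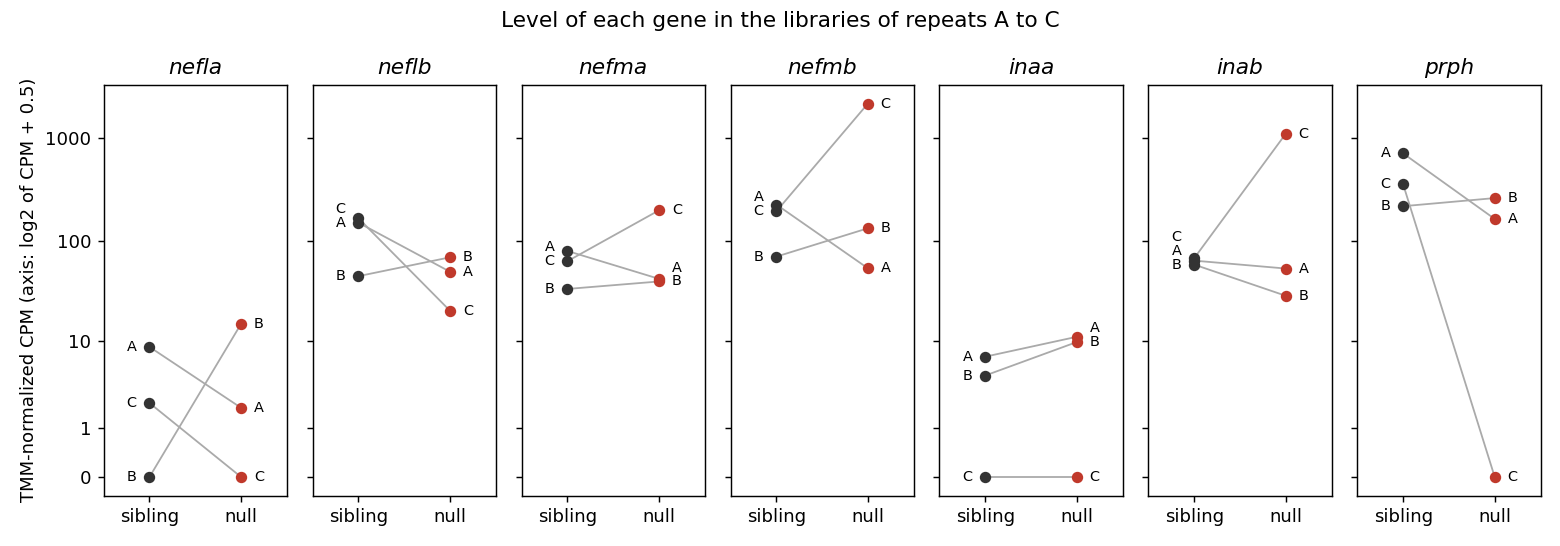
TMM-normalized CPM of each gene in sibling (black) and null (red) libraries, repeats A to C, drawn on an axis of log2(CPM + 0.5), with 1 point per library, its repeat letter beside it and a line joining the libraries of a repeat. Null C holds the highest point for *nefma*, *nefmb* and *inab* and the lowest for *neflb*, and *prph* drops to 0 there.

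Light chain levels were lower in null larvae in 2 of 3 repeats for *neflb*. *neflb* had 3455, 1034 and 3419 reads in siblings A, B and C, against 930, 1137 and 100 in null A, B and C. Normalized, these were 150, 44.7 and 165 CPM in siblings and 49.4, 68.5 and 20.3 CPM in null larvae. The null level was 3.03-fold lower in repeat A and 8.14-fold lower in repeat C, and 1.53-fold higher in repeat B, where the sibling library was low. *neflb* averaged 120 ± 65.6 CPM in siblings against 46.1 ± 24.3 CPM in null larvae (SD, n = 3 each), with a log2 fold change of -1.38 (SE 0.75, adjusted p = 1.00 by edgeR). The difference was within the spread between libraries. Its log2 fold change was negative in each of the 15 alternative fits, between -1.78 and -0.05, and -1.04 without null C. These fits share libraries, so their signs are not independent of one another.

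*nefla*, the other light chain gene, was sparse. It had 202, 0 and 44 reads in siblings A, B and C, against 35, 249 and 0 in null A, B and C. One library of each genotype had none, and the highest level was in null B (15.01 CPM). Levels were 3.63 ± 4.56 CPM in siblings against 5.62 ± 8.18 CPM in null larvae (SD, n = 3 each), with a log2 fold change of 0.64 (SE 2.31, adjusted p = 1.00 by edgeR). That sign turned without null B, to -1.91, and with the repeat as a block, to -1.58, and it was 1.21 without null C. The 3 reads that a count of 0 allows correspond to 0.130 CPM in sibling B and 0.610 CPM in null C, limits that cover counting error only.

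The medium chain genes went with null C. *nefmb* had 5199, 1608 and 3991 reads in siblings A, B and C, against 1006, 2189 and 10678 in null A, B and C. These were 225, 69.6 and 193 CPM in siblings, and 53.5, 132 and 2169 CPM in null larvae. Null C held 92.1% of the summed null level. Against its own sibling library, the level was 4.21-fold lower in repeat A, 1.90-fold higher in repeat B and 11.2-fold higher in repeat C. Without the TMM factor, repeat C had 1115 CPM in null larvae and 214 CPM in siblings. *nefmb* averaged 163 ± 82.1 CPM in siblings against 785 ± 1200 CPM in null larvae (SD, n = 3 each), with a log2 fold change of 2.27 (SE 1.26, adjusted p = 1.00 by edgeR). It was 1.24 without TMM factors and -0.82 without null C.

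*nefma* varied less. It had 1826, 773 and 1297 reads in siblings A, B and C, against 792, 658 and 972 in null A, B and C, or 79.1, 33.4 and 62.7 CPM in siblings and 42.1, 39.7 and 197 CPM in null larvae. Null A and B lay within the range of the sibling libraries and null C lay above it. Levels were 58.4 ± 23.1 CPM in siblings against 93.1 ± 90.4 CPM in null larvae (SD, n = 3 each), with a log2 fold change of 0.67 (SE 0.81, adjusted p = 1.00 by edgeR). The fold change was -0.53 without null C and -0.070 when libraries were scaled to gene reads alone. That scaling moved the median of all genes by -0.21, and *nefma* then lay 0.29 above the median of all genes, against 0.82 with TMM factors. Over all 4 repeats its fold change was 2.17.

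Of the internexin genes, *inab* had the most even level in siblings. It had 1468, 1343 and 1389 reads in siblings A, B and C (63.6, 58.1 and 67.2 CPM), so that the highest sibling library was 1.16 times the lowest. The log2 range over the sibling libraries was 0.21, against a median of 1.08 over all genes tested. Over the null libraries it was 5.25, against a median of 3.00 over all genes tested. The null libraries had 1000, 475 and 5434 reads (53.2, 28.6 and 1104 CPM). Null A and B lay below the 3 sibling libraries and null C lay far above them, with 93.1% of the summed null level. Levels averaged 63.0 ± 4.56 CPM in siblings against 395 ± 614 CPM in null larvae (SD, n = 3 each), with a log2 fold change of 2.65 (SE 1.26, adjusted p = 1.00 by edgeR). It was 1.59 without TMM factors and -0.63 without null C (adjusted p = 1.00 by edgeR in both). A share over 90% in null C was found for 2 of the 7 members and for 4.26% of the 14781 genes with null reads.

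*inaa* was sparse and followed the repeat. It had 160, 101 and 0 reads in siblings A, B and C, against 209, 163 and 0 in null A, B and C, so that both libraries of repeat C had none. The null level was 1.60-fold higher in repeat A (11.1 against 6.93 CPM) and 2.25-fold higher in repeat B (9.82 against 4.37 CPM). With all 6 libraries, levels were 3.77 ± 3.50 CPM in siblings against 6.98 ± 6.08 CPM in null larvae (SD, n = 3 each), with a log2 fold change of 0.89 (SE 2.20, adjusted p = 1.00 by edgeR). It was positive in each of the 14 alternative fits that could test it, between 0.29 and 1.65, and 1.46 without null C.

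**Figure D2:**
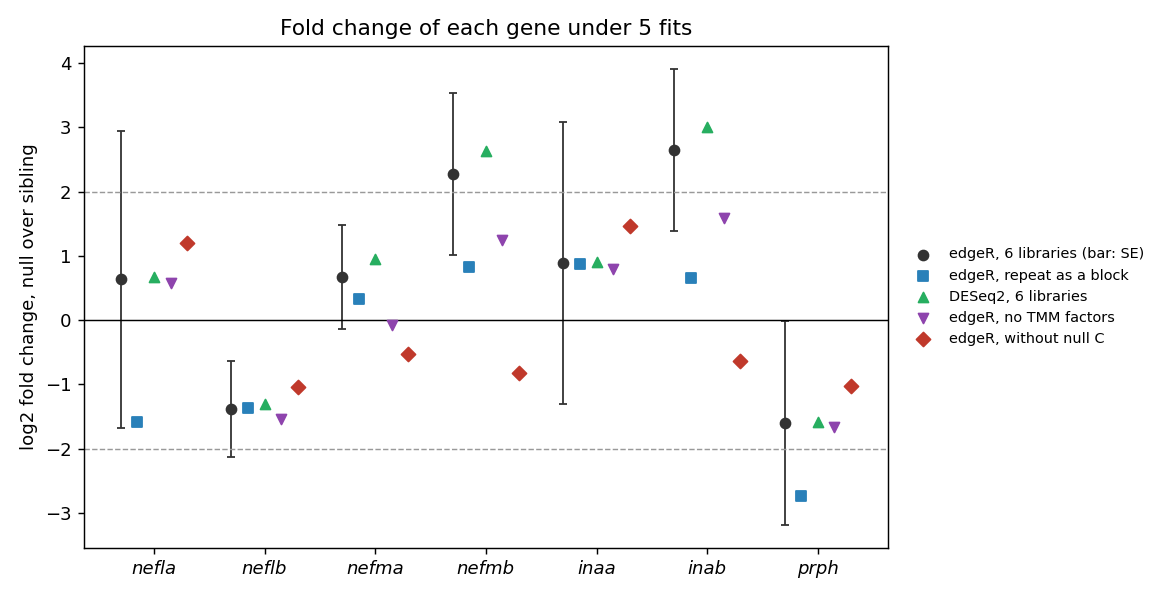
Log2 fold change (null over sibling) of each gene from edgeR on the 6 libraries (black, bar ± SE), edgeR with the repeat as a block, DESeq2, edgeR without TMM factors, and edgeR without null C (red diamonds), with dashed lines at the fold threshold of 2 in either direction. *neflb* and *prph* lie below 0 and *inaa* above 0 in each of the 5 fits. *nefma*, *nefmb* and *inab* cross 0 without null C, *nefma* also without TMM factors (-0.070), and *nefla* with the block.

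Peripherin gave the widest contrast between single libraries. *prph* had 16376, 5010 and 7316 reads in siblings A, B and C, against 3060, 4317 and 0 in null A, B and C. These were 709, 217 and 354 CPM in siblings and 163, 260 and 0 CPM in null larvae. The null level was 4.36-fold lower in repeat A, and in repeat B it was slightly above the sibling level. In repeat C it was at least 580-fold lower, a bound taken against 3 reads in null C that covers counting error only. In null C, 33.8% of all genes tested had no reads. The lowest count of *prph* in the other 5 libraries was 3060 reads. Of the 721 genes with at least that many in each of those libraries, 3 (0.416%) had no reads in null C. These were *prph*, *brms1la* and *mtfr1l*. *prph* was among them by construction, since its own lowest count set the threshold and its own 0 set the criterion. The share therefore does not measure how unusual the count of *prph* was. *prph* averaged 427 ± 254 CPM in siblings against 141 ± 131 CPM in null larvae (SD, n = 3 each), with a log2 fold change of -1.60 (SE 1.59, adjusted p = 1.00 by edgeR). The sign was negative in each of the 14 alternative fits that could test it, between -2.76 and -1.02. Without null C the log2 fold change was -1.02 (adjusted p = 1.00 by edgeR), and the range of null A and B overlapped that of the siblings.

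Markers of cranial motor neurons and of sensory ganglion neurons are given beside *prph*, since peripherin marks both in mammals. Of the 10 motor neuron markers listed, 9 had a row and 7 were tested. Their summed level was 3521, 2239 and 1811 CPM in siblings A, B and C and 1908, 2519 and 1219 CPM in null A, B and C. Sibling A was highest for both *prph* and this sum, and null C was lowest for both. Between these ends the orders differed. Sibling C had 354 CPM of *prph* and a sum of 1811 CPM, whereas null B had 260 CPM of *prph* and a sum of 2519 CPM. Of the tested markers, 6 had a negative and 1 a positive log2 fold change, beside 55.9% negative over all genes. Their median was -0.79, beside -0.15 over all genes, and 0 had an unadjusted p under 0.05 by edgeR. The marker with the highest mean, the transcription factor gene *phox2bb*, was the positive one, with 989, 747 and 811 CPM in siblings and 816, 1355 and 598 CPM in null larvae (log2 fold change 0.12, SE 0.47, adjusted p = 1.00 by edgeR). *isl1*, the next by mean, had 1047, 719.7 and 334 CPM in siblings and 552, 524 and 192 CPM in null larvae (log2 fold change -0.73, SE 0.61, adjusted p = 1.00 by edgeR). *chata*, which makes acetylcholine, had 262, 182 and 138 CPM in siblings and 121, 90.3 and 73.1 CPM in null larvae (log2 fold change -1.03, SE 0.54, adjusted p = 1.00 by edgeR). *slc18a3a*, the vesicular acetylcholine transporter, had 904, 384 and 334 CPM in siblings and 271, 421 and 175 CPM in null larvae. *mnx1* had no reads in any null library or in sibling C. The sum of the 10 sensory ganglion markers ran in another order, with sibling A lowest (242 CPM) and null C highest (1659 CPM). It was 480.1 and 626 CPM in siblings B and C and 475 and 551 CPM in null A and B. Most of it in null C was *neurod1* (1327 CPM), a gene of many developing neurons, and 4 of the 10 markers had no reads there. Of the 8 sensory markers tested, 5 had a negative and 3 a positive log2 fold change, with a median of -0.45. Only *prdm14* had an unadjusted p under 0.05 by edgeR. It had 9.96, 9.04 and 0.580 CPM in siblings and 0.053, 0 and 0 CPM in null larvae. In bulk samples, fewer cells of a type and less RNA per cell cannot be told apart, and the part of motor and sensory neurons in the level of *prph* was not tested.

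The make-up of the reads on the 7 genes differed between null C and the other libraries, a comparison that needs no scaling between libraries. The 7 genes together had 28686, 9869 and 17456 reads in siblings A, B and C, against 7032, 9188 and 17184 in null A, B and C. *prph* took 57.1%, 50.8% and 41.9% of these reads in the siblings, 43.5% and 47.0% in null A and B, and 0% in null C. *nefmb* took 16.3% to 22.9% in siblings, 14.3% and 23.8% in null A and B, and 62.1% in null C. *inab* took 5.12% to 13.6% in siblings, 14.2% and 5.17% in null A and B, and 31.6% in null C. These are parts of the same total, so the absence of *prph* in null C by itself raises the shares of the other genes there. *neflb* took 10.5% to 19.6% in siblings and 13.2% and 12.4% in null A and B, but 0.582% in null C. Null C thus had reads on 4 of the 7 genes, against 6 or 7 in the other 5 libraries.

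**Figure D3:**
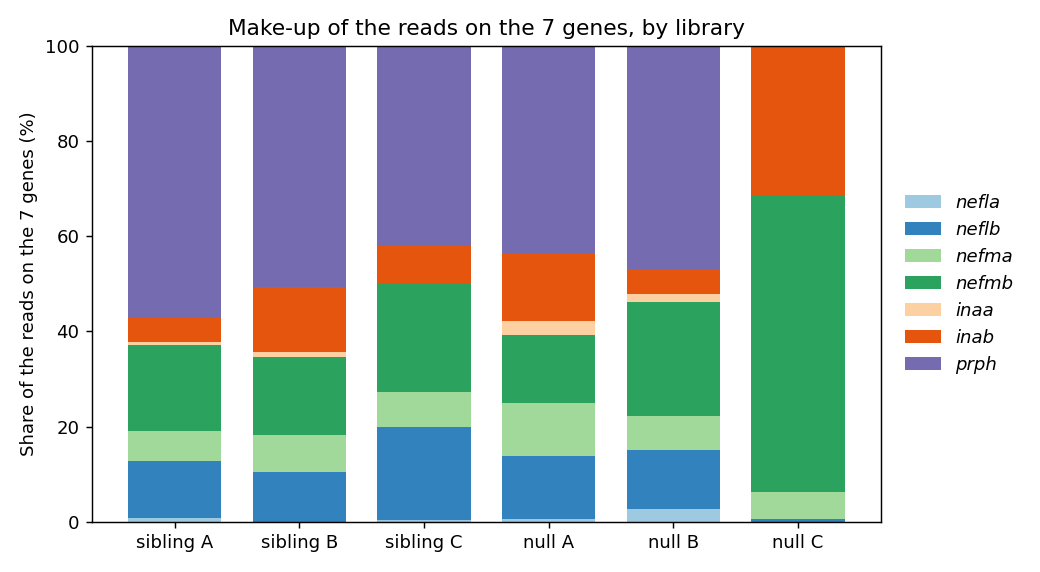
Share of the reads on the 7 genes that falls on each gene (percent of reads, stacked to 100%) in the 6 libraries of repeats A to C. *prph* takes 41.9% to 57.1% in 5 libraries and 0% in null C, where *nefmb* takes 62.1% and *inab* 31.6%.

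The shares of the a and b copies within each pair were compared in the same way. *nefma* took 26.0%, 32.5% and 24.5% of the reads of the medium chain pair in siblings A, B and C, and 44.0%, 23.1% and 8.34% in null A, B and C. The 95% Wilson interval was 41.8% to 46.4% in null A and 7.85% to 8.86% in null C, so that the null libraries differed from one another by more than counting error. Such intervals cover counting error only. The means were 27.7% ± 4.22 in siblings and 25.2% ± 17.9 in null larvae (SD, n = 3 each; two-sided exact permutation test, p = 0.8).

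*nefla* took 5.52%, 0% and 1.27% of the light chain reads in siblings and 3.63%, 17.97% and 0% in null larvae, with null B apart from the rest. The 0 reads of *nefla* in null C stood against 100 reads of *neflb*, and the Wilson interval there reached 3.70%. The means were 2.26% ± 2.89 in siblings and 7.20% ± 9.50 in null larvae (SD, n = 3 each; two-sided exact permutation test, p = 0.7).

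*inaa* took 9.83%, 6.99% and 0% of the internexin reads in siblings and 17.3%, 25.5% and 0% in null larvae. In repeats A and B the null share lay above both sibling shares, with Wilson intervals of 15.3% to 19.5% and 22.3% to 29.1% in null larvae and 8.48% to 11.4% and 5.79% to 8.43% in siblings. In repeat C, *inaa* was at 0 beside 1389 reads of *inab* in siblings and 5434 in null larvae. Over the 3 repeats the means were 5.61% ± 5.06 and 14.3% ± 13.0 (SD, n = 3 each; two-sided exact permutation test, p = 0.4). These were 3 tests, and 0.1 is the smallest p that 3 libraries against 3 allow. Reads aligned at more than 1 place were kept in a row of their own, 1.74% to 3.35% of the reads listed for each of these 6 libraries, and how many of them came from these copies is not known.

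**Figure D4:**
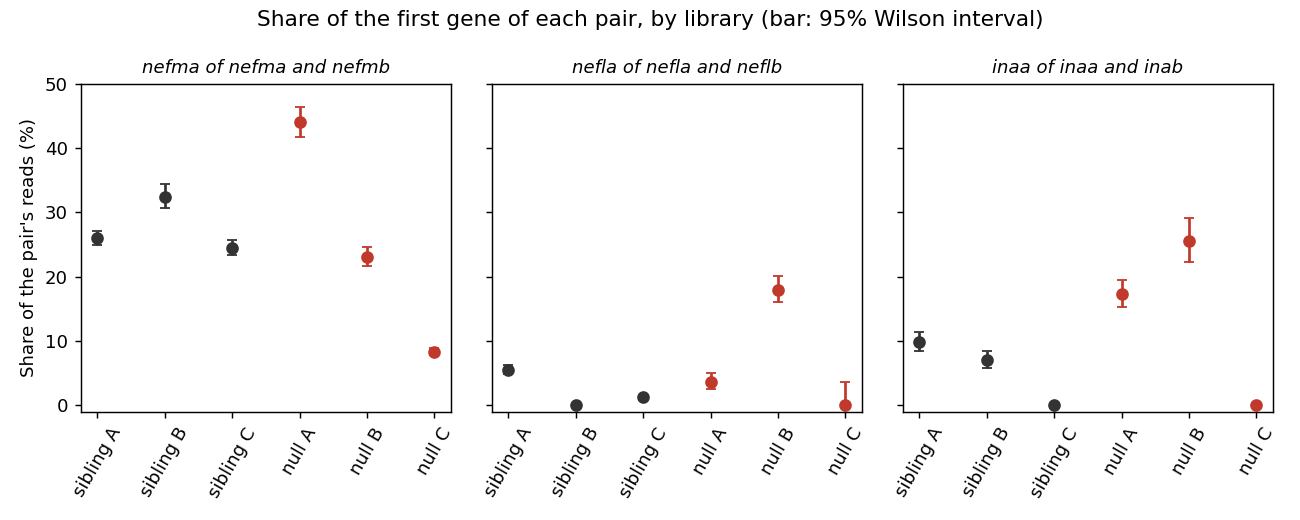
Share of the first-named gene in the reads of each pair (percent, vertical bars are 95% Wilson intervals) in sibling (black) and null (red) libraries, repeats A to C. The *nefma* share spans 8.34% to 44.0% among null libraries and 24.5% to 32.5% among siblings, and the *inaa* share is 0% in both libraries of repeat C.

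The genes whose profile over the 6 libraries lay nearest to each member were listed, by the root mean squared difference of centered log2 levels among genes with a mean over 10 CPM. This is a description of 6 libraries, and null C, the library with the fewest gene reads, enters every profile. For *nefma* these were *efl1* (0.16) and *mboat2b* (0.16), for *nefmb* *fgf18a* (0.31) and *stam2* (0.38), and for *inab* *usp36* (0.16) and *eef1a1l1* (0.18). The elongation factor gene *eef1a1l1*, for example, had 406 to 524 CPM in siblings, 440 and 260 CPM in null A and B and 7080 CPM in null C. For *neflb* they were *vim* (0.27) and *wu:fc21g02* (0.28). For the sparse *nefla* and *inaa* the nearest genes lay farther away, *tmem242* (0.54) and *raf1b* (0.60) for the former and *ctc1* (0.46) and *mfge8a* (0.53) for the latter. For *prph* they were *parp6b* (0.62), which was also at 0 in null C, and *znf1179* (0.67). Between members, the closest profiles were those of *nefmb* and *inab* (0.79), and the farthest were those of *inab* and *prph* (5.11).

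Intermediate filament genes of other cells and of the nucleus were listed for comparison. Of 17, all had a row and 13 were tested, with 0 at an unadjusted p under 0.05, 7 negative and 6 positive log2 fold changes, and a median of -0.21. Vimentin (*vim*), a filament of progenitors and glia, had 50.3, 10.7 and 38.8 CPM in siblings and 16.4, 13.4 and 5.49 CPM in null larvae (log2 fold change -1.50, SE 0.96, adjusted p = 1.00 by edgeR). The glial filament gene *gfap* had 0, 11 and 24 reads in siblings and none in null larvae, and was not tested. Of the 7 glial markers tested, 6 had a positive and 1 a negative log2 fold change, with a median of 0.22. The negative one, *mpz*, was the only one with an unadjusted p under 0.05 by edgeR. It had 0.823, 4.50 and 7.40 CPM in siblings and 0 in each null library. *mbpa*, a positive one, had 109, 0 and 0 CPM in siblings and 385, 8.98 and 0 CPM in null larvae. The keratin gene *krt4*, a marker of skin, had 2547 CPM in sibling A and 2939 CPM in null C, against 0.241 to 149 CPM in the other 4 libraries. *krt8*, another keratin gene, had 551 CPM in null C and at most 20.02 CPM elsewhere. All 10 skin markers had a row, and their sum was 59.5 to 2928 CPM in siblings and 23.3 to 4651 CPM in null larvae. The skin markers did not move as 1 group. Of the 10, 5 had a negative and 5 a positive log2 fold change, and 2 had an unadjusted p under 0.05, in opposite directions (adjusted p = 1.00 by edgeR for both). The epithelial adhesion gene *epcam* had 79.2, 44.8 and 160 CPM in siblings and 13.5, 0.362 and 5.69 CPM in null larvae. The cadherin gene *cdh1* had 14.2, 5.88 and 5.22 CPM in siblings and 1.86, 15.8 and 364 CPM in null larvae. *tp63*, a gene of basal skin cells, was at 0 in null C. Null C was highest for *nefmb*, *inab* and the skin sum. It was also highest for the sums of pan-neuronal (27084 CPM), sensory ganglion (1659 CPM) and muscle (103 CPM) markers. The sums of the other marker lists were highest in other libraries. The part of skin cells in the levels of *nefmb* and *inab* was not tested.

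Proteins that carry, link and anchor neurofilaments were listed next, including kinesins, dynein, dynactin, plakins, spectrins and ankyrins. Of 21 genes, 19 had a row and 18 were tested, with 0 at an unadjusted p under 0.05, 9 negative and 9 positive log2 fold changes, and a median of 0.00. *kif5aa*, a motor of slow and fast axonal transport, had 601, 400 and 561 CPM in siblings and 681, 364 and 955 CPM in null larvae (log2 fold change 0.36, SE 0.51, adjusted p = 1.00 by edgeR). *ank2b*, an axonal ankyrin, had 760, 1115 and 958 CPM in siblings and 727, 972 and 1324 CPM in null larvae (log2 fold change 0.09, SE 0.44, adjusted p = 1.00 by edgeR).

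Kinases that phosphorylate neurofilament tails and enzymes of filament turnover formed the third list. Of 17 genes, 16 had a row and 15 were tested, with 0 at an unadjusted p under 0.05 by edgeR. Of the 15, 12 had a negative and 3 a positive log2 fold change, beside 55.9% negative over all genes. The median was -0.54 beside -0.15 over all genes. Null C had no reads on 4 of the 16 genes, against at most 1 in each other library of repeats A to C. The kinase gene *gsk3ba* had 267, 227 and 180 CPM in siblings and 193, 139 and 1530 CPM in null larvae (log2 fold change 1.47, SE 0.90, adjusted p = 1.00 by edgeR). The related *gsk3ab* had 287, 320 and 186 CPM in siblings and 282, 342 and 23.4 CPM in null larvae (log2 fold change -0.29, SE 0.85, adjusted p = 1.00 by edgeR). Null C thus lay far above the sibling libraries for *gsk3ba* and far below them for *gsk3ab*.

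In repeat D, few reads fell on the 7 genes. Siblings D had 15865368 gene reads, of which 8 fell on the 7 genes, 7 on *prph* and 1 on *nefmb*. Null D had 735217 gene reads, of which 32 fell on the 7 genes, 21 on *nefma*, 9 on *neflb* and 1 each on *nefmb* and *prph*. The summed level was thus 0.504 CPM of gene reads in siblings D, against 514 to 1437 CPM in siblings A to C. In null D it was 43.5 CPM, against 414 to 1794 CPM in null A to C, at a depth where 3 reads are worth 4.08 CPM. There *nefma* was at 28.6 CPM, against 43.4 to 101 CPM in null A to C, and *neflb* was at 12.2 CPM, against 10.4 CPM in null C. On *phox2a*, siblings D had 10228 reads, more than in any other library. Siblings D had reads on 6211 genes, against 16675 to 18409 in siblings A to C.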

How the data were processed

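The authors deposited raw counts, whole reads per gene and library, from reads aligned to GRCz11 plus the Kaede and GFP sequences. The aligner and counting program are not given in the sources used here. Libraries were made with a low-input full-length kit (SMART-Seq HT). The 5 rows that name no gene, with 41.2% to 98.1% of a library's listed reads, were left out of all sizes and fits. The deposited table of scaled values was not used. Columns carry genotype and run code, not the replicate number of the labels.

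The 3 sibling and 3 null libraries of repeats A to C were fitted by genotype in edgeR 4.0.16 under R 4.3.3 (filterByExpr, TMM, then glmQLFit with glmQLFTest) and Benjamini-Hochberg adjustment over 14824 genes. A standard error is the log2 fold change divided by the root of its F statistic. DESeq2 1.42.0, the repeat as a block, RLE, no TMM, other filters, robust fitting, all 4 repeats and leaving out each library were alternatives. Each repeat gave both genotypes, so repeats pair the libraries. Deviations from genotype means correlated at 0.027 in A, 0.082 in B and 0.055 in C.

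Members, gene lists and tests were chosen with earlier results of these data known. Genes named are the 7 members, *phox2a*, the 2 nearest profiles per member, and, from each of the 3 pathway lists (other intermediate filaments, transport, kinases), genes with an unadjusted p under 0.05 or otherwise the 2 with the highest mean. Single marker genes, *gfap*, *brms1la* and *mtfr1l* were named after their values were seen. Other marker lists were summed in repeats A to C and ranged in CPM from 872 to 1897 for glia, 242 to 1659 for sensory ganglion neurons, 0.173 to 4.88 for erythroid cells, 2.23 to 103 for muscle, 0.610 to 168 for microglia and macrophages and 0 to 60.7 for hair cells.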

Additional observations from a re-analysis of the deposited data

Results flagged for a closer look

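The members *nefma* and *neflb* had reads in null D, above the level of the sibling library of that repeat. Null D was left out of the main comparison and entered only the alternatives over all repeats. *nefma* had 21 reads there, or 28.6 CPM of gene reads, and none in siblings D, where 0 reads allow up to 0.189 CPM. That limit covers counting error only. *neflb* had 9 reads, or 12.2 CPM, and none in siblings D. Null D had 735217 gene reads, and 95.4% of its listed reads were not aligned, against 40.5% in siblings D. Of the genes tested, 62.6% had no reads in siblings D and 86.6% had none in null D. With 1 library per genotype in that repeat, the difference was not tested.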

How the results depend on the processing

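The number of members called was 0 in the main fit and in each of the 15 alternatives. DESeq2 without the block could not call *nefmb* (log2 fold change 2.64) or *inab* (3.01), since it gave no p for them. Over all genes, edgeR called 0 in the main fit, 40 over all 4 repeats and 0 in each fit without 1 library, while DESeq2 called 128, and 287 with the repeat as a replicate block. With the replicate block edgeR called 0 genes, and the block changed no call of a member. The alternatives share libraries, so the signs they give are not independent of one another. Of 102 alternative log2 fold changes of the members, 95 kept their sign and 7 did not. Those of *nefla* were -1.58 (edgeR) and -1.68 (DESeq2) with the replicate block, and ranged from -1.91 (without null B) to 2.39 with 1 library left out. That of *nefma* was -0.070 without TMM factors, ranged from -0.53 (without null C) to 1.02 with 1 library left out, and was 2.17 over all 4 repeats. Without TMM factors *nefmb* was at 1.24 and *inab* at 1.59, against 2.27 and 2.65 with them. Without null C, *nefmb* was at -0.82 and *inab* at -0.63, the lowest values with 1 library left out, and the highest were 2.75 and 3.18. The null minus sibling difference in the *nefma* share was -2.49 percentage points, ranged from -11.9 to 5.92 with 1 library left out, and was 21.99 over all 4 repeats, where repeat D held 1 read of the pair in siblings and 22 in null larvae. That in the *nefla* share was 4.93 points and ranged from -0.45 (without null B) to 8.53, and that in the *inaa* share was 8.67 points and ranged from 3.04 (without null B) to 15.8 (without null C). Over all 4 repeats neither of these shares had a value, since siblings D had no reads of either pair. With the replicate block, the exact test of the shares gave p = 1 for *nefma*, 1 for *nefla* and 0.5 for *inaa*, with 0.25 the smallest possible. An unadjusted p under 0.05 by edgeR was found for *nefmb* and *inab* with no filter, beside 5.19% of genes, and without null A, beside 8.68%, and for *inab* without null B, beside 6.31%. The causes were not tested. A filter of 10 reads in every library left 4 members. *nefla* and *inaa* had at most 249 reads in a library, and their zeros fell in deep libraries as well as in null C.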
